A study of Mus musculus with 4 samples.

Results

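The genes of glycolysis, lactate export and glycogen turnover were examined in induced regulatory T (iTreg) cells cultured with or without added iron. The set was a list of gene names, chosen with earlier results of these data known, and comprised 35 genes of the 47729 gene rows: the isozymes of each glycolytic step, the glucose and monocarboxylate transporters, the kinases that set fructose-2,6-bisphosphate and gate pyruvate dehydrogenase, and 5 glycogen enzymes. All 35 had a row. Pdk4 had too few reads to be tested, leaving 34.

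Glycolysis splits glucose into pyruvate and yields ATP without oxygen. Pyruvate is then reduced to lactate and exported, or is carried into the mitochondrion, where pyruvate dehydrogenase converts it to acetyl-CoA. Activated T cells are known for a high rate of glucose uptake and lactate release, and many genes of the pathway carry binding sites for the hypoxia-inducible factors, whose alpha subunits are marked for degradation by oxygen- and iron-dependent hydroxylases. Glycogen is a store of glucose that phosphorylase releases for the same pathway.

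The experiment compared the transcripts of iTreg cells cultured with and without added iron. Naive CD4 T cells of C57BL/6 mice, with spleen given as the tissue, were activated through CD3 and CD28 and driven towards the Treg fate by TGF-β (5 ng/mL) and IL-2 (100 U/mL), with neutralizing antibodies to IFN-γ and to IL-4, at 5 µg/mL apiece. The FeSO4 group received ferrous sulfate (50 µM) and the Mock group PBS, both for 4 days, with 2 RNA-seq libraries per group. The methods describe pairs of samples from independent experiments, but the labels name no animal. An in vitro culture of this kind is a mixture, since not every cell acquires Foxp3. No sort before RNA extraction is described for these cultures, and in bulk RNA fewer cells of a type and less RNA per cell cannot be told apart.

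The libraries held 35183187 to 40859178 reads that were assigned to genes. Levels are given as CPM, the usual library-scaled count, with TMM scaling, where a count of 3, the limit that a count of 0 allows, equals 0.0717 to 0.0876 CPM. The T cell genes Cd3e and Cd4 were present in every library, at 304 to 346 and 606 to 683 CPM. Foxp3 was at 587 and 693 CPM in Mock and at 376 and 472 CPM in FeSO4, so that it fell (log2 fold change -0.59 ± 0.09 SE, adjusted p = 0.000223), and Ikzf2 fell as well (-0.79 ± 0.14, adjusted p = 0.000986). In the list of 6 T and Treg cell genes, these 2 were lower and 0 were higher. These are transcript levels: by intracellular staining, the paper reported that ferrous sulfate altered Foxp3 induction little in cultured iTreg cells. Exons of Foxp3 also overlap those of other genes in the annotation used here. Il2ra (0.02 ± 0.07, adjusted p = 0.847) and Ctla4 (0.17 ± 0.09, adjusted p = 0.226) did not pass the test. Of the markers of other cells, 1 of 6 B cell genes (Ighm), 1 of 6 myeloid genes (Cst3), 1 of 4 NK genes (Klrk1) and 1 of 2 erythroid genes (Hba-a1) rose with FeSO4. Their summed levels went from 162 and 173 to 248 and 278 CPM for B cell genes, from 88 and 98 to 116 and 118 CPM for myeloid genes, from 1.65 and 1.82 to 2.76 and 3.42 CPM for NK genes, and from 19.8 and 24.9 to 32.6 and 37.6 CPM for erythroid genes. Nearly all of the B cell sum was Ighm, at 159 to 165 CPM in Mock and 245 to 275 CPM in FeSO4. Cst3 (87.1 to 93.5, then 115 to 118 CPM) and Hba-a1 (19.6 to 24.5, then 32.5 to 37.5 CPM) likewise carried the myeloid and erythroid sums. The other B cell and myeloid genes did not pass the test or had too few reads for it. The CD8 genes, of which 0 of 2 passed the test, summed to 9.04 and 9.81 CPM in Mock and to 9.95 and 11 CPM in FeSO4. Several defining markers of these cells were at or near 0: Ncr1 and Klrb1c had 0 reads in every library, and Ms4a1, Itgam, Csf1r and Cd14 had 0 or 1 read in each library other than Mock replicate 1, which held up to 7. Others were present: Lyz2 had 164 reads and Igkc 156 in Mock replicate 1, against 0 to 8 in each of the other libraries, Cd8a had 25 to 94 reads and Cd79a 69 to 107. The part that these shifts play in the values below was not tested.

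More of the set was higher than lower with iron. Of the 34 genes tested, 17 were higher in FeSO4 (50.0%) and 1 was lower, Pdk2, at an adjusted p under 0.05 in edgeR's quasi-likelihood test. Over all 13732 genes tested, 10.9% were higher and 9.17% were lower by the same rule. The median log2 fold change was 0.27 over the tested members and -0.00052 over all genes. The increases ranged from 0.24 for Pfkp to 2.25 for Aldoc on the log2 scale, 6 of the 17 were below 0.5, and 2 were above 1 (Aldoc and Pygl). Both FeSO4 libraries lay above both Mock libraries for 23 tested members and below for 4, while 7 overlapped. Over all genes tested, 30.1% lay above and 29.4% below. Of the 11 members with a mean of at least 100 CPM, 9 were higher. The share of all genes at that level is not given here, and small changes pass the test more readily at high counts. For example, Pfkp passed at 0.24 ± 0.06 (SE), while the scarcer Pfkfb4 did not at 0.36 ± 0.23. Of all gene reads, the set took 0.977% and 0.944% in the Mock libraries and 1.18% and 1.22% with FeSO4, a difference of 0.239 percentage points (exact permutation test, two-sided, p = 0.333, the smallest that 2 libraries against 2 can give).

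**Figure D1:**
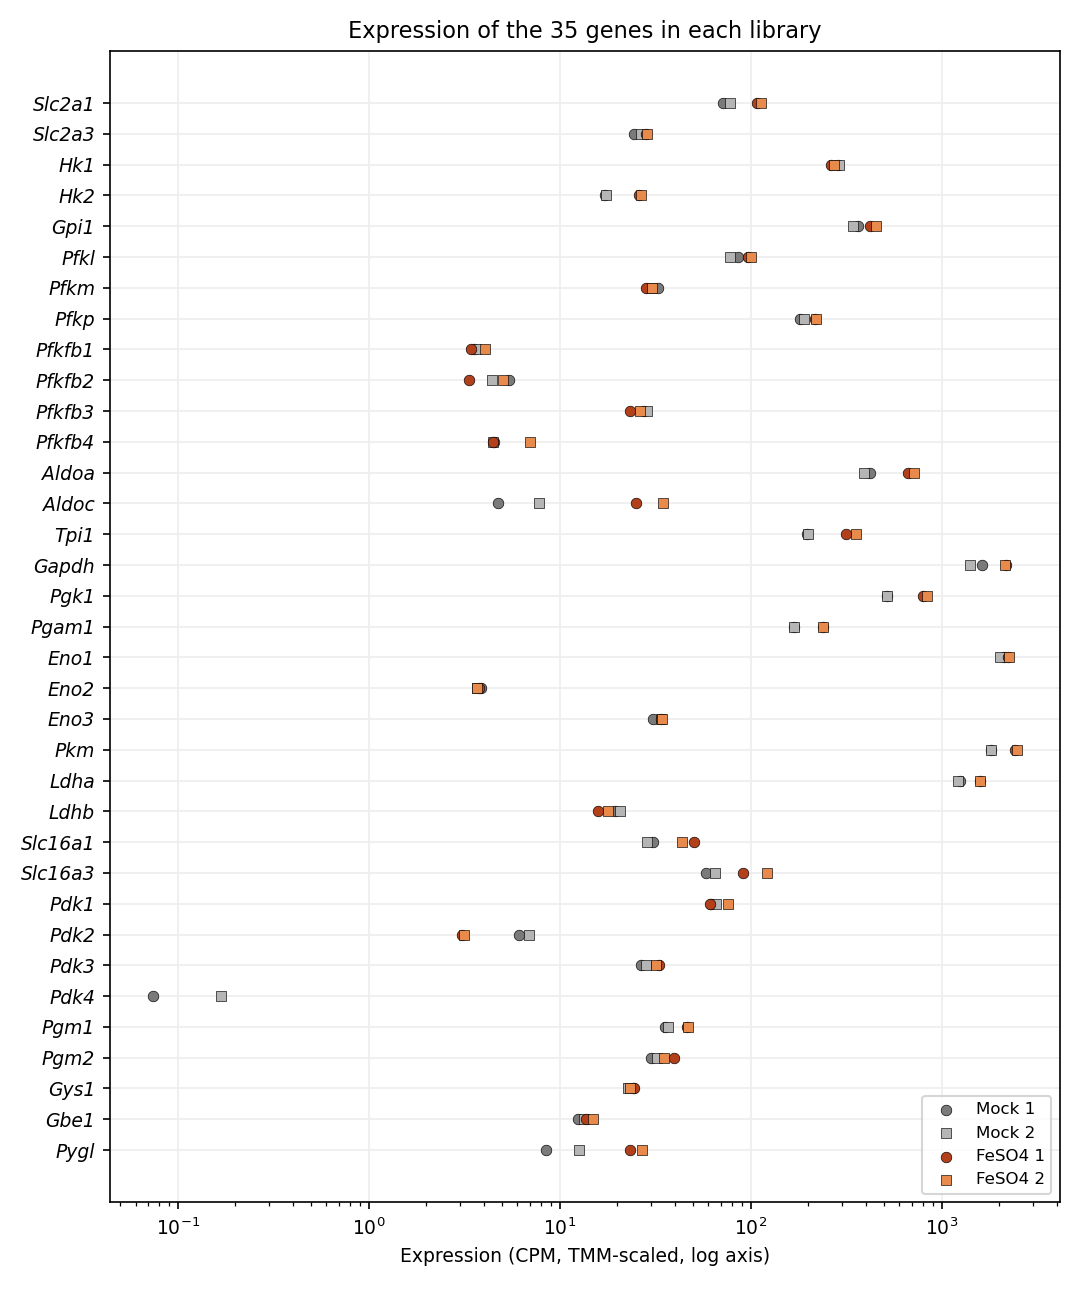
Expression of the 35 genes in each of the 4 libraries, in pathway order from glucose uptake to glycogen breakdown, on a log axis of TMM-scaled CPM. Circles are replicate 1 and squares replicate 2, grey for Mock and orange for FeSO4; libraries at 0 (Pdk4 in FeSO4) have no point. Aldoc and Pygl show the widest gaps upwards and Pdk2 the gap downwards, while Eno1, at 2023 to 2263 CPM, stays nearly in place.

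Per kilobase of exon, Pkm was the most abundant member in Mock at 761 CPM per kb, followed by Gapdh (674), Ldha (413), Eno1 (385), Pgk1 (230) and Aldoa (148). At the other end of the tested members stood Pfkfb1, Eno2 and Pfkfb2, at 0.897, 0.803 and 0.479 CPM per kb. Exon lengths came from GENCODE M1, which may not be the annotation used for counting, so these levels are approximate.

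Promoters of the genes that moved most, and of the lactate exporter Slc16a3 and of Pgk1, are shown because 17 members were higher and genes of this pathway are known for sites of the hypoxia-inducible factors. They are the 250 bases before the first start site that RefSeq lists (build GRCm38.p6), 5′ to 3′ on the gene's strand. Capitals mark the core letters of a hypoxia response element, ACGTG or GCGTG, read on either strand (CACGT or CACGC in the printed strand), and the E-box CACGTG, which holds ACGTG on both strands and so counts as 2 cores. Aldoc lies at chr11:78322823-78323072 (plus strand), Pygl at chr12:70227684-70227933 (minus strand), Slc16a3 at chr11:120948817-120949066 (plus strand), Pgk1 at chrX:106186850-106187099 (plus strand) and Pdk2 at chr11:95041372-95041621 (minus strand).
Aldoc: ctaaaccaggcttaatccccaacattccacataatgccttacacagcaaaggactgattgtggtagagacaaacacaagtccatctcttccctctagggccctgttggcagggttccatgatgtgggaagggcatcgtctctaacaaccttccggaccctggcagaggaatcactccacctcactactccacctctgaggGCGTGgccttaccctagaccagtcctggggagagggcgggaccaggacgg
Pygl: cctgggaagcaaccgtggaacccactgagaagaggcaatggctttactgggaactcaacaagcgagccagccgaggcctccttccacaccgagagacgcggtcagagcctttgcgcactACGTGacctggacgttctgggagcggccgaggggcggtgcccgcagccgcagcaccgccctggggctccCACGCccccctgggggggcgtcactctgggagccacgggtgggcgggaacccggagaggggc
Slc16a3: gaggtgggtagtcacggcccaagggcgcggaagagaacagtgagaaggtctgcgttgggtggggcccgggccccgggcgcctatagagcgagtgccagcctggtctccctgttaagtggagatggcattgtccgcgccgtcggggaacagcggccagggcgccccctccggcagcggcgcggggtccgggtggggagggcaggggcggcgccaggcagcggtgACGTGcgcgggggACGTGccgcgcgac
Pgk1: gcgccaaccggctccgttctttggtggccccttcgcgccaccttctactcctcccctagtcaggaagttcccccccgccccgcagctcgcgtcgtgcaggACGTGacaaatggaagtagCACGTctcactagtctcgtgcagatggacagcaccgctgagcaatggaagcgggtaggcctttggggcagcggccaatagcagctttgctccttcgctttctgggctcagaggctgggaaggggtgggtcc
Pdk2: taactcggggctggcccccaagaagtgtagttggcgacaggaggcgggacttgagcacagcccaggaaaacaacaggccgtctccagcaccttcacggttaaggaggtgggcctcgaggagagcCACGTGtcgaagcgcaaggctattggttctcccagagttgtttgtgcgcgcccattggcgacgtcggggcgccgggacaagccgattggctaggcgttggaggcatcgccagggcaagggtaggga
Pygl, Slc16a3 and Pgk1 each hold 2 cores in this window, and those of Slc16a3 begin 27 and 14 bases before the start site. Aldoc has 1, with 2 more in the first 50 bases after the start. Pdk2, the member that fell, also holds a match, as an E-box. In the full RefSeq windows of 300 bases (250 before to 50 after the start), 25 of the 34 members with an entry (73.5%) held at least 1 core in their first listed promoter, against 43.8% of the 27025 genes counted. Those genes left out a chromosome that holds no member, and they included genes that were not tested here, so the sets are not matched. Among members that were higher, 13 of 17 held a core (76.5%), and among those not called 10 of 15 did (66.7%). The E-box was found in 5 of the 34 (14.7%) and in 7.24% of the same 27025 genes. Tpi1, Gpi1 and the first listed promoters of Aldoa and Pkm held neither, and all 4 genes were higher. The other listed promoters of Aldoa held 1 core each, and the other one of Pkm held 2. These matches describe the letters only.

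In pathway order, glucose entry was the first step with a changed transcript. Slc2a1 encodes GLUT1, the main glucose transporter of activated T cells. It stood at 71.6 and 77.9 CPM in Mock and at 108 and 114 CPM in FeSO4. Both FeSO4 libraries were higher, with a log2 fold change of 0.57 ± 0.07 (± SE throughout, adjusted p = 4.63e-05). Slc2a3, which encodes the high-affinity transporter GLUT3, was at 24.6 and 26.6 CPM in Mock and at 28.2 and 28.8 CPM in FeSO4, and did not pass the test (0.15 ± 0.10, adjusted p = 0.309). The log2 fold changes of the pair differed by 0.42 ± 0.12, with the SE taken from both fits as if independent. Slc2a1 made up 88.1% of their summed level per length in both Mock libraries and 90.7% and 90.9% in FeSO4.

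Hexokinase traps glucose in the cell as glucose-6-phosphate. The isozyme of high level was Hk1, at 285 and 291 CPM in Mock and at 263 and 272 CPM in FeSO4, which did not pass the test (-0.11 ± 0.06, adjusted p = 0.248). Hk2, the inducible isozyme, was at 17.3 and 17.4 CPM in Mock and at 26.1 and 26.6 CPM in FeSO4. It rose by 0.61 ± 0.11 (adjusted p = 0.00079), a fold of 1.52. The change of Hk2 exceeded that of Hk1 by 0.71 ± 0.12 on the log2 scale. Per length, Hk2 went from 7.96% and 7.88% of the 2 isozymes to 12.4% and 12.3%, so Hk1 remained the larger share in every library.

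Gpi1, the isomerase that converts glucose-6-phosphate to fructose-6-phosphate, was at 366 and 344 CPM in Mock and at 422 and 454 CPM in FeSO4. The increase was small (0.30 ± 0.06, adjusted p = 0.00296). Phosphofructokinase commits the sugar to glycolysis, and 2 of its 3 isozymes were higher. The liver-type gene Pfkl was at 85.4 and 77.8 CPM in Mock and at 97.3 and 100.4 CPM in FeSO4 (0.28 ± 0.07, adjusted p = 0.0139). The platelet-type gene Pfkp was at 181 and 189 CPM in Mock and at 218 and 219.5 CPM in FeSO4 (0.24 ± 0.06, adjusted p = 0.0124). These were the smallest increases among the members called higher. The call for Pfkl was lost without Mock replicate 2 (0.21, adjusted p = 0.107) or FeSO4 replicate 2 (0.25, adjusted p = 0.0654), and that for Pfkp without Mock replicate 1 (0.20, adjusted p = 0.0712) or FeSO4 replicate 2 (0.24, adjusted p = 0.0509). With a library left out, its group has 1 library, which is assumed to vary like the other group, so here and for the other genes such p-values rest on the spread of the group that keeps 2. The muscle-type gene Pfkm overlapped between groups, at 32.7 and 30.2 CPM in Mock and at 28.2 and 30.3 CPM in FeSO4 (-0.10 ± 0.10, adjusted p = 0.505). Its share of the 3 isozymes per length was 21.7% and 20.7% in Mock and 16.9% and 17.7% in FeSO4.

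The bifunctional enzymes that make and remove fructose-2,6-bisphosphate, the activator of phosphofructokinase, showed no such rise. Of the 4 Pfkfb genes, 0 passed the test, with 0 at an unadjusted p under 0.05 in edgeR and 0 called by DESeq2 or limma-voom. Pfkfb3, the most abundant, was at 27.5 and 28.5 CPM in Mock and at 23.4 and 26.4 CPM in FeSO4 (-0.17 ± 0.10, adjusted p = 0.277). Pfkfb4 was at 4.53 and 4.45 CPM in Mock and at 4.47 and 7.0 CPM in FeSO4, so its estimate of 0.36 ± 0.23 (adjusted p = 0.302) came from FeSO4 replicate 2. Without that library it was -0.008. Pfkfb1 (3.57 and 3.63 CPM in Mock, against 3.42 and 4.08 CPM in FeSO4) and Pfkfb2 (5.4 and 4.4 CPM in Mock, against 3.36 and 5.05 CPM in FeSO4) overlapped between groups. At these low levels the SE of 0.24 for both would hide a change of the size seen in Pfkl.

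**Figure D2:**
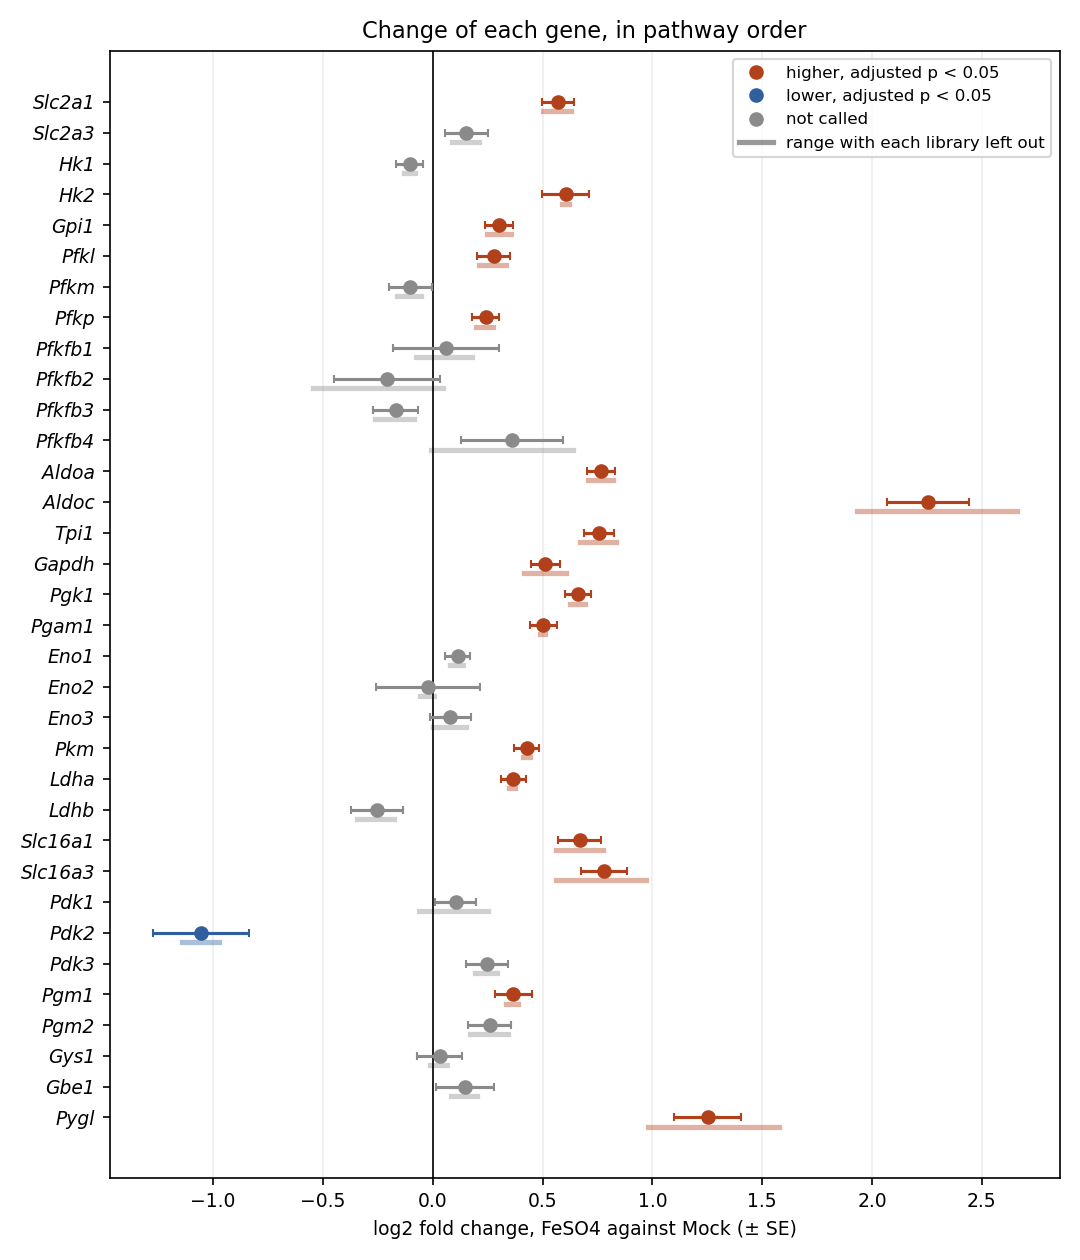
The log2 fold change of each tested gene, FeSO4 against Mock, in pathway order, with its SE as a bar (2 libraries per group). The pale bar under each point spans the 4 values obtained with each library left out, and color gives the call of edgeR's quasi-likelihood test. Points from Aldoa to Pgam1 lie between 0.50 and 0.77 apart from Aldoc at 2.25, the enolases sit near 0, and Pdk2 is the single gene called lower, while 6 others lie below 0 without a call.

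Aldolase, which cleaves the 6-carbon sugar, held the largest increase. Aldoc, the brain-type isozyme, was at 4.73 and 7.77 CPM in Mock and at 25.1 and 34.6 CPM in FeSO4. The groups were far apart although the libraries within each also differed, and the log2 fold change was 2.25 ± 0.19 (adjusted p = 3.74e-07), a fold of 4.77. It ranged from 1.93 to 2.66 with each library left out. Aldoa, the ubiquitous isozyme, was at 420 and 392 CPM in Mock and at 663 and 718 CPM in FeSO4, higher by 0.77 ± 0.06 (adjusted p = 4.03e-07). Aldoc rose more than Aldoa by 1.49 ± 0.20 on the log2 scale. Its share of aldolase per length went from 0.941% and 1.64% to 3.10% and 3.90%, so nearly all aldolase reads per length still came from Aldoa.

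The trunk of the pathway below aldolase was higher apart from enolase. Tpi1, which interconverts the triose phosphates, was at 198 and 199.5 CPM in Mock and at 317 and 355 CPM in FeSO4 (0.76 ± 0.07, adjusted p = 8.65e-07). Gapdh, which reduces NAD as it oxidizes glyceraldehyde-3-phosphate, was at 1623 and 1413 CPM in Mock and at 2180 and 2151 CPM in FeSO4 (0.51 ± 0.07, adjusted p = 4.97e-05). For both genes the FeSO4 libraries stood clear of the Mock libraries. Pgk1, the first ATP-forming kinase of the pathway, was at 517 CPM in both Mock libraries and at 797 and 836 CPM in FeSO4 (0.66 ± 0.06, adjusted p = 9.31e-07). Pgam1, phosphoglycerate mutase, was at 168 and 169 CPM in Mock and at 240.5 and 238 CPM in FeSO4 (0.50 ± 0.06, adjusted p = 2.74e-05). The Mock libraries of both genes lay almost on top of each other.

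Enolase, the step between phosphoglycerate mutase and pyruvate kinase, was the exception. Eno1, its main gene, was at 2117 and 2023 CPM in Mock and at 2216 and 2263 CPM in FeSO4. Both FeSO4 libraries were above both Mock libraries, but the difference was only 0.11 ± 0.06 and did not pass the test (adjusted p = 0.191). Its log2 fold change was smaller than that of Pgam1 by 0.39 ± 0.09 and than that of Pkm by 0.31 ± 0.08. Eno3, the muscle isozyme, was at 30.7 and 33.8 CPM in Mock and at 33.9 and 34.3 CPM in FeSO4 (0.08 ± 0.09), and Eno2, the neuronal isozyme, was at 3.87 and 3.68 CPM in Mock and at 3.77 and 3.67 CPM in FeSO4 (-0.02 ± 0.23). Of the 3 enolase genes, 0 passed in edgeR, 0 had an unadjusted p under 0.05, and 0 were called by DESeq2 or limma-voom. Eno1 held 94.8 to 95.4% of enolase per length in the 4 libraries.

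Pkm, which encodes the pyruvate kinase of T cells, closed the trunk at 1818 and 1819 CPM in Mock and at 2419 and 2470 CPM in FeSO4. The increase was 0.43 ± 0.06 (adjusted p = 6.56e-05), a fold of 1.34. The counts are per gene, so its splice forms were not separated. In all, 6 of the 7 genes from Aldoa to Pkm along the main route were higher, by 0.43 to 0.77 on the log2 scale. Reads that aligned to more than 1 place were not assigned to a gene, and Gapdh, Aldoa, Pgk1, Tpi1, Pgam1, Eno1, Pkm and Ldha have near-identical processed copies in the mouse genome, so their levels may be under-counted. Exons of 10 members overlap those of another gene in the annotation used here, among them the called genes Slc2a1 (Gm12868), Gpi1 (Gm17327), Pfkp (Pitrm1), Tpi1 (Spsb2), Slc16a3 (Csnk1d) and Pgm1 (Itgb3bp). Reads that overlapped more than 1 gene were set aside as ambiguous in the deposited table (3.78 to 3.91% of all reads), so these genes may be under-counted too.

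**Figure D3:**
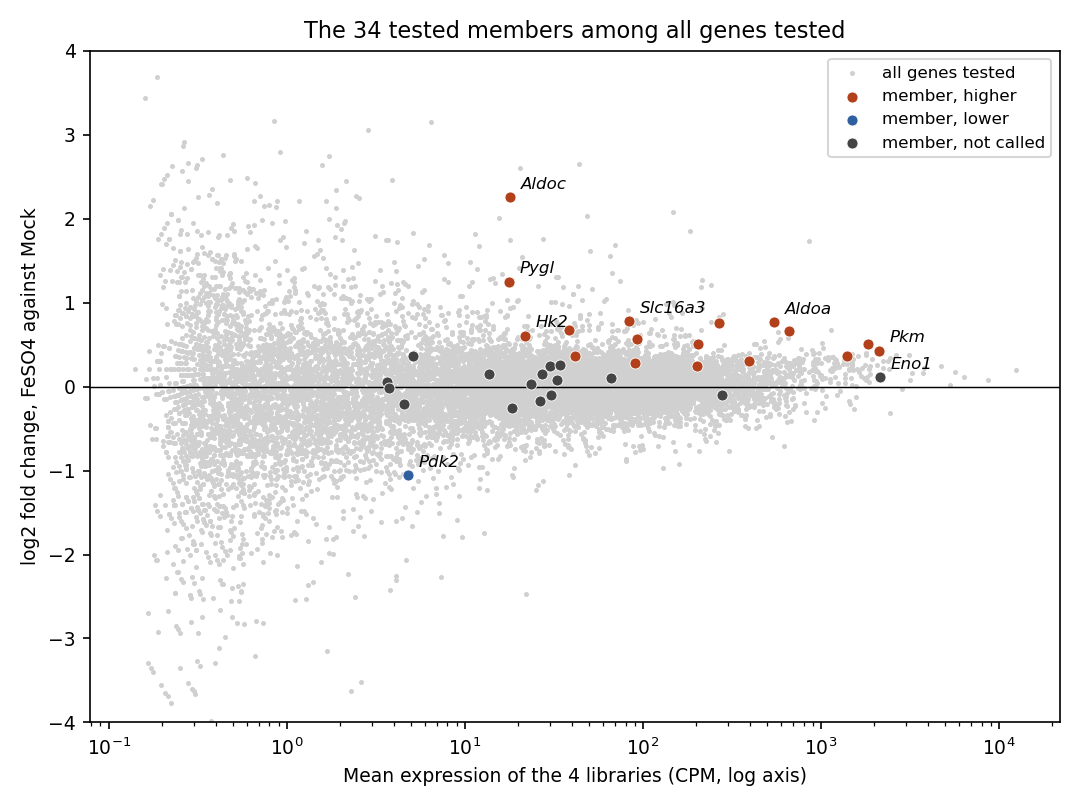
Each point is a gene, placed by its mean level over the 4 libraries (CPM, log axis) and its log2 fold change in FeSO4 against Mock; grey points are all 13732 genes tested, of which 32 lie beyond the plotted range of 4. The 34 tested members are drawn in red (17 higher), blue (1 lower) and dark grey (16 not called). Most red points sit at high levels, where the grey band is narrow.

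Most genes of lactate formation and export followed the trunk at the transcript level. Ldha, the isozyme subunit that favors lactate, was at 1248 and 1215 CPM in Mock and at 1594 and 1580 CPM in FeSO4 (0.37 ± 0.06, adjusted p = 0.000279). Ldhb, the subunit that favors pyruvate, was at 19.5 and 20.7 CPM in Mock and at 15.8 and 17.8 CPM in FeSO4. Both FeSO4 libraries were lower, but the difference did not pass (-0.26 ± 0.12, adjusted p = 0.145). The log2 fold changes of Ldha and Ldhb differed by 0.62 ± 0.13. Ldhb made up 2.89% and 3.14% of the pair per length in Mock and 1.85% and 2.10% in FeSO4.

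Both lactate transporters of the set were higher. Slc16a3 encodes MCT4, an exporter of lactate from glycolytic cells. It was at 58.6 and 65.3 CPM in Mock and at 91.3 and 121 CPM in FeSO4, a rise of 0.78 ± 0.10 (adjusted p = 6.56e-05). The FeSO4 libraries differed from each other, and leaving out replicate 2 of FeSO4 gave 0.56, replicate 1 of FeSO4 0.97. Slc16a1 encodes MCT1, which carries lactate in either direction. It was at 30.8 and 28.6 CPM in Mock and at 50.8 and 43.8 CPM in FeSO4, a rise of 0.67 ± 0.10 (adjusted p = 0.000132). The balance of the pair overlapped between groups, with Slc16a3 at 61.3% and 65.5% per length in Mock and 60.0% and 69.8% in FeSO4. Bsg and Emb encode the chaperones that bring these transporters to the membrane. Bsg was at 245 and 218 CPM in Mock and at 295 and 300.3 CPM in FeSO4 (0.36 ± 0.07, adjusted p = 0.00114), and Emb was at 56.0 and 54.7 CPM in Mock and at 72.7 and 77.0 CPM in FeSO4 (0.44 ± 0.08, adjusted p = 0.000755). Bsg and Emb were among the 3 genes that were higher of 41 other pathway genes tested (7.32%, against 10.9% of all genes). The related transporter gene Slc16a7, outside the set, had 1 to 5 reads in each library and was not tested.

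The pyruvate dehydrogenase kinases inactivate pyruvate dehydrogenase and so restrain the oxidation of pyruvate in the mitochondrion. Pdk2 was the only member that fell. It was at 6.14 and 6.86 CPM in Mock and at 3.09 and 3.16 CPM in FeSO4, a log2 fold change of -1.06 ± 0.22 (adjusted p = 0.00279), or 2.08-fold lower. The decrease held with each library left out (-1.14 to -0.97). Pdk1, a well-known hypoxia-responsive gene, was at 62.0 and 66.0 CPM in Mock and at 61.3 and 76.1 CPM in FeSO4. Its groups overlapped (0.10 ± 0.09, adjusted p = 0.475), and the estimate was -0.06 without FeSO4 replicate 2. Pdk3 was at 26.5 and 28.2 CPM in Mock and at 33.1 and 31.9 CPM in FeSO4, and did not pass (0.25 ± 0.10, adjusted p = 0.0792). Pdk4 had 3 and 7 reads in Mock and 0 in each FeSO4 library, too few to test. The change of Pdk2 lay below that of Pdk1 by 1.16 ± 0.24 and below that of Pdk3 by 1.30 ± 0.24. Per length, Pdk2 went from 9.57% and 9.98% of the kinases to 4.49% and 4.30%.

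**Figure D4:**
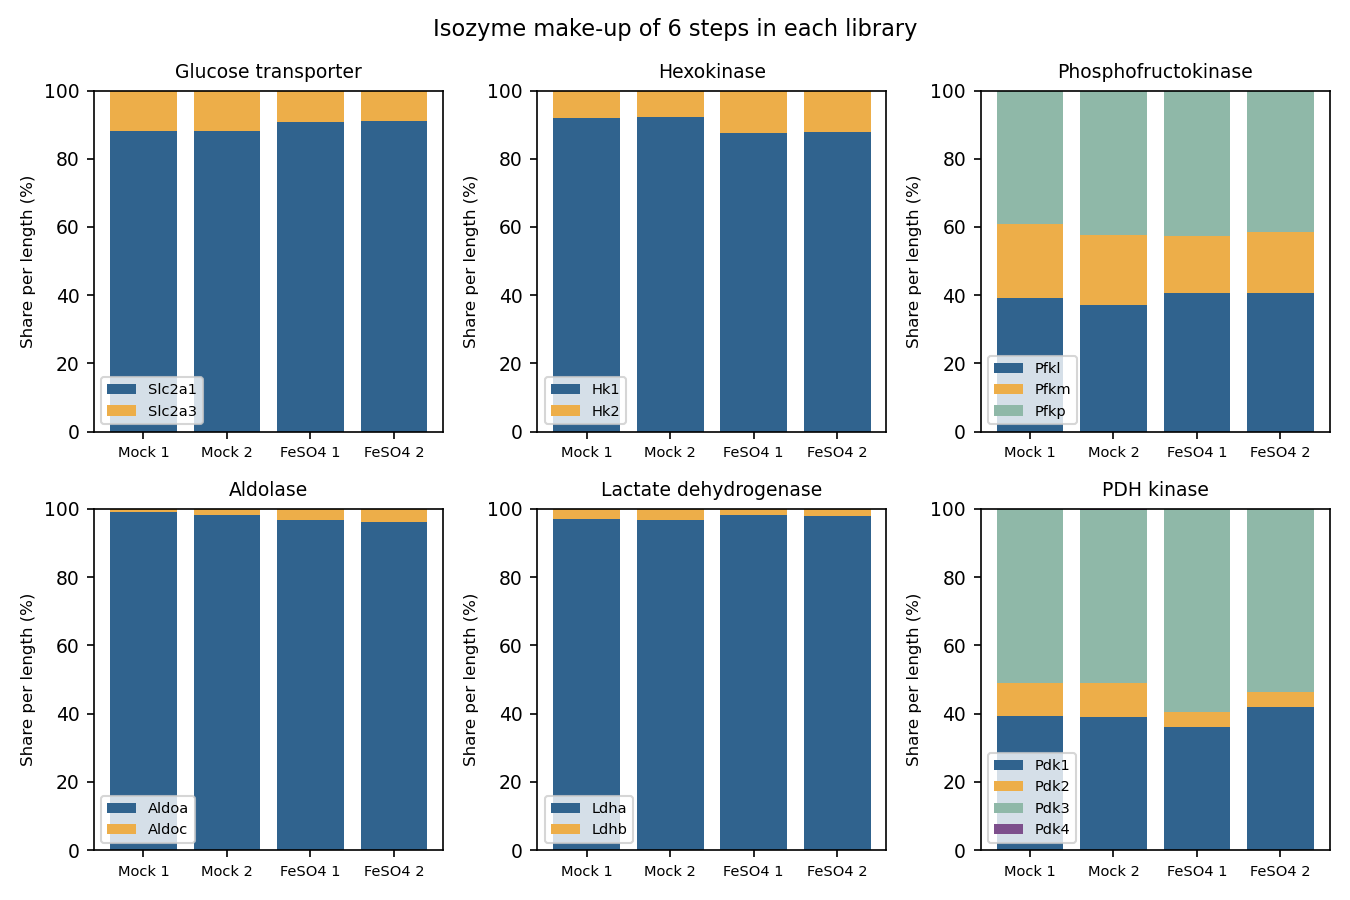
Share of each isozyme in its step (level per exon length, percent of the sum over the isozymes shown) in each of the 4 libraries, for 6 steps. The share of Hk2 is larger in FeSO4 (12.3 to 12.4%) than in Mock (7.88 to 7.96%) and that of Pdk2 is smaller (4.30 to 4.49% against 9.57 to 9.98%), while the main isozyme is the same gene in all 4 libraries for each step other than phosphofructokinase, where Pfkl (37.1 to 40.7%) and Pfkp (39.0 to 42.6%) are close.

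Of the glycogen enzyme genes in the set, the phosphorylase gene Pygl changed most. Pygl, the liver-type glycogen phosphorylase, was at 8.43 and 12.6 CPM in Mock and at 23.3 and 27.0 CPM in FeSO4. It rose by 1.25 ± 0.15 (adjusted p = 2.74e-05), a fold of 2.38, and by 0.98 to 1.58 with each library left out. Pygl was not the main phosphorylase gene of these cultures. Pygb, outside the set, stood at 29.9 CPM per kb in Mock, against 2.75 for Pygl, and did not pass the test. Gys1, the glycogen synthase, was at 24.1 and 22.7 CPM in Mock and at 24.4 and 23.4 CPM in FeSO4 (0.03 ± 0.10, adjusted p = 0.876). Gbe1, the branching enzyme, was at 12.4 and 13.4 CPM in Mock and at 13.8 and 14.9 CPM in FeSO4 (0.15 ± 0.13, adjusted p = 0.48). Of these 2 synthesis genes, 0 passed in edgeR, 0 had an unadjusted p under 0.05, and 0 were called by DESeq2 or limma-voom. The log2 fold change of Pygl exceeded that of Gys1 by 1.22 ± 0.19 and that of Gbe1 by 1.11 ± 0.20. Phosphoglucomutase links glycogen to glycolysis. Pgm1 (ENSMUSG00000025791) was at 35.6 and 36.8 CPM in Mock and at 46.4 and 47.1 CPM in FeSO4 (0.37 ± 0.09, adjusted p = 0.00592). Pgm2 (ENSMUSG00000029171) was at 29.9 and 32.4 CPM in Mock and at 39.6 and 35.1 CPM in FeSO4 and did not pass (0.26 ± 0.10, adjusted p = 0.0703). It passed with the replicate number as a block (adjusted p = 0.0462 by edgeR) and without FeSO4 replicate 2 (adjusted p = 0.0431). The changes of these 2 mutases differed by 0.11 ± 0.13, and older annotations exchange their symbols.

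Few other genes of the pathway were called. Of 59 other genes of glucose uptake, glycolysis, pyruvate oxidation and glycogen turnover, 41 could be tested and 4 were called (9.76%, against 20.0% of all genes in either direction), among them Bsg, Emb and Ldhd, which were higher. The median log2 fold change of the 41 was 0.02. Ldhd, a mitochondrial D-lactate dehydrogenase, had only 4 and 5 reads in Mock and 37 and 17 in FeSO4 (2.76 ± 0.76, adjusted p = 0.0165). Pygb, the brain-type phosphorylase, was at 144 CPM in both Mock libraries and at 159 and 155 CPM in FeSO4 and did not pass (0.12 ± 0.06, adjusted p = 0.197). The subunits of pyruvate dehydrogenase Pdha1 (-0.04 ± 0.07), Pdhb (0.02 ± 0.07) and Dlat (0.04 ± 0.08) also did not pass.

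Among regulators of the pathway, Hif1a, which encodes the alpha subunit of a hypoxia-inducible factor, was at 121 and 139 CPM in Mock and at 180 and 186 CPM in FeSO4 (0.49 ± 0.07, adjusted p = 0.000158). Txnip encodes a protein that removes glucose transporters from the cell surface. It was at 374 and 395 CPM in Mock and at 212 and 240 CPM in FeSO4 (-0.77 ± 0.07, adjusted p = 9.5e-07). Myc, a driver of glycolytic genes in activated T cells, was at 133 and 143 CPM in Mock and at 139 and 132 CPM in FeSO4 and overlapped (-0.02 ± 0.07, adjusted p = 0.846). Mlxip, which encodes MondoA, a glucose-sensing factor that drives Txnip, was at 49.2 and 62.5 CPM in Mock and at 45.2 and 52.2 CPM in FeSO4, and overlapped too (-0.20 ± 0.11, adjusted p = 0.211).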

How the data were processed

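Total RNA of iTreg cells was sequenced in 4 libraries. The authors deposited a table of raw, unnormalized read counts with Ensembl genes as rows and libraries as columns. The submitters' processing notes list Trim Galore 0.6.7, STAR 2.7.9a, featureCounts and mm10, whereas the methods name STAR, mm9 and DESeq. The annotation and strand setting were not given in the sources used here. The table ended with 5 rows of unassigned reads (15.9 to 17.3% of a library), which were left out. No column of another sample was present.

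edgeR 4.0.16 (R 4.3.3) was used to filter genes (filterByExpr with the group, 13732 genes kept), to scale by TMM and to compare FeSO4 with Mock by the quasi-likelihood F test. P-values were adjusted by Benjamini-Hochberg across every gene kept. The current quasi-likelihood method was set as the main one after both it and the legacy method had been run. SEs are |log2 fold change| over √F. The biological coefficient of variation was 8.24%. Differences between 2 members use both SEs as if independent. Shares of isozymes use exon lengths of GENCODE M1. The 2 libraries of a group differed beyond sampling noise (chi-square per degree of freedom 11.3 in Mock and 9.02 in FeSO4). Nothing states that they came from separate animals, so p-values measure the spread between these libraries. Floors cover counting error only.

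Alternatives were DESeq2 1.42.0, limma-voom (limma 3.58.1), different filters and scaling methods, a replicate block, leaving out each library, the study's threshold and, chosen after seeing the data, the legacy method. All 35 members are accounted for, with values in every library for those called and for the others of their steps. Of the other pathway genes those called are named, apart from a result that is not reported here. Pygb, Pdha1, Pdhb and Dlat were added after their values were seen, as were the promoters shown. Promoters came from RefSeq (GRCm38.p6), where 34 of 35 members matched, and not Slc2a3. The members and lists were chosen with earlier results of these data known.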

Additional observations from a re-analysis of the deposited data

Results flagged for a closer look

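Reads outside the gene rows were not part of the comparison, and 2 classes of them had larger shares in each FeSO4 library than in either Mock library. Reads with more than 1 alignment made up 4.42% and 4.27% of all reads in Mock and 4.60% and 4.62% in FeSO4, a difference of means of 0.264 percentage points. The share of low alignment quality was 0.802% and 0.929% in Mock and 0.978% and 0.988% in FeSO4, a difference of 0.118 percentage points. Reads that fell in no gene went the other way, at 5.31% and 6.03% in Mock and 4.36% and 5.21% in FeSO4. Which genes these reads came from, and their part in the values of Gapdh, Aldoa and the other members with processed copies, was not tested.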

How the results depend on the processing

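The count of higher members stayed at 13 to 18 under the other scalings, filters, tools and libraries tried, and Pdk2 was lower in all of them. With the study's threshold (unadjusted p under 0.05 and a log2 change of 0.5 or more in size), 11 members were higher, and 2 of the other pathway genes were called. The share of all genes at that threshold is not given here, so whether the 11 stand out from it cannot be said. On library size alone the median log2 fold change of the members was 0.20, and Pfkfb1 (-0.0046) and Gys1 (-0.034) changed sign. That scaling moved the median of all genes to -0.07 and the share of calls that were higher from 54.2% to 35.1%, and it ended the calls of Pfkl and Pfkp. The difference in the share of gene reads was 0.284 percentage points on the size factors of DESeq2 and 0.122 without Eno1, Pkm and Gapdh. Without a filter, 13 members were higher (Gpi1, Pfkl, Pfkp and Pgm1 lost their calls), and over all genes 524 were higher and 304 lower, against 1491 and 1259 with it. The lost calls had log2 fold changes of 0.31, 0.28, 0.24 and 0.37 there, against 0.30, 0.28, 0.24 and 0.37 with the filter. With each library left out, all-gene calls fell to 926 higher and 751 lower at the least (without Mock replicate 2). The estimates that changed sign in this way ranged from -0.078 to 0.18 for Pfkfb1, -0.54 to 0.046 for Pfkfb2, -0.0080 to 0.64 for Pfkfb4, -0.058 to 0.0040 for Eno2, -0.062 to 0.25 for Pdk1 and -0.012 to 0.064 for Gys1, and none of them had been called. Of 442 member values under alternatives, 422 kept their direction and side of the threshold. The cause of the changes was not tested.

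With the replicate number as a block, 18 members were higher (Pgm2 was added, adjusted p = 0.0462 by edgeR, as it was without FeSO4 replicate 2, adjusted p = 0.0431) and 1 was lower, and 6 other pathway genes were called. Calls also rose over all 13732 genes tested, to 1847 higher and 1580 lower with the block, against 1491 and 1259 without it. The deviations of same-numbered libraries had a correlation of 0.0293 over all genes tested and 0.22 over the 8522 genes of at least 10 CPM. The methods describe pairs from independent experiments, but neither they nor the labels say that a number marks a pair. The legacy quasi-likelihood method gave 17 higher and 1 lower. For genes under 10 CPM, of which 1 of 5 tested members was called, depth limits what could be seen.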
